A study of Mus musculus with 335 samples.

Results

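The nuclear genes of oxidative phosphorylation (OXPHOS) were described in single cells of the aorta-gonad-mesonephros, the embryonic region where the first definitive haematopoietic stem cells (HSCs) emerge. Members were all genes of the deposited count table whose symbol begins with Ndufa, Ndufb, Ndufc, Ndufs, Ndufv, Uqcr, Atp5, Cox4i, Cox5, Cox6, Cox7 or Cox8, together with Sdha, Sdhb, Sdhc, Sdhd and Cyc1. This rule, which uses names and no measured value, found 88 of 13365 genes: 36 of complex I, 8 complex I assembly factors (Ndufaf), 4 of complex II, 9 of complex III, 15 of complex IV and 16 of complex V. Ndufa4 was counted with complex IV, where its protein is now placed. The 13 protein-coding genes of the mitochondrial genome were set beside them. No row carried the symbols Ndufa4l2, Cox6a2, Cox8b or Cox8c, and these were not analysed here.

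Wild-type embryos of the mouse, staged E11.5, gave all cells, which were sorted singly and profiled by Smart-seq2, a plate method that reads whole transcripts without molecular identifiers. The HSC group held 65 EPCR+CD45+ cells, a population that includes the HSCs. The Dorsal group held 93 Ngfr+Pdgfrb- cells taken dorsally of the aorta and the Ventral group 89 such cells taken ventrally of it. The Mesenchymal group held 88 Pdgfrb+Ngfr- cells of the ventral side, which include subaortic mesenchyme. Since every group made up a single sequencing pool with no embryo named, a group is 1 sample, no test was possible, and group and pool cannot be told apart.

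Pools held 68381900 to 110229000 estimated counts and the median cell 504750 to 1031280. A single Ventral cell, Ventral 41, held 18.5% of its pool's counts. It also had the highest nuclear OXPHOS share of the 89 Ventral cells, 2.87% of its counts, so Ventral values that it moves by over 1.5 times, and calls that it ends, are given with and without it. The summed haematopoietic stem and progenitor markers reached 2842 CPM (counts per 1000000) in HSC against 117 to 245 elsewhere. Mesenchyme markers reached 2699 CPM in Mesenchymal against 6.58 to 398. Neural crest and glia markers gave 2054 CPM in Dorsal and 763 in Ventral, against 3.02 in HSC and 61.4 in Mesenchymal. These lists hold genes of the sort markers (Procr for EPCR, Ptprc for CD45, Pdgfrb and Ngfr), so part of this order follows from the sort itself. Markers of another cell type were present as well. The 11 macrophage markers summed to 1295 CPM in Dorsal, 879 in Ventral, 776 in HSC and 2.93 in Mesenchymal. Their sum had a median over cells of 63.3, 53.5, 606 and 0 CPM in the same order. The list also holds Ptprc, the gene of the CD45 used to sort HSC cells, so the HSC sum does not measure macrophages. Of the Ngfr+ cells, 39 Dorsal and 20 Ventral had at least 5 counts of 3 or more of these markers. HSC and Mesenchymal cells were not scored in this way, and none were left out for these markers.

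Oxidative phosphorylation couples electron transport to ATP synthesis in the inner mitochondrial membrane. Complexes I and II pass electrons to ubiquinone, complex III to cytochrome c and complex IV to oxygen, and the proton gradient built by complexes I, III and IV drives the ATP synthase, complex V. Complex II is encoded by nuclear genes alone, whereas the other complexes join nuclear and mitochondrial products and therefore need both genomes. Adult HSCs are known to rely largely on glycolysis.

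Nuclear OXPHOS RNA took a similar share of counts in the 4 groups. In the summed counts it was highest in Ventral, at 2.07% (1.89% without the deepest cell), followed by HSC with 1.87%, Mesenchymal with 1.73% and Dorsal with 1.68%. In single cells the share ran from 0.760% to 2.79% in HSC with a median of 1.64%. It ran from 0.372% to 2.30% in Dorsal (median 1.67%), from 0.905% to 2.87% in Ventral (median 1.72%) and from 0.839% to 2.41% in Mesenchymal (median 1.48%). The ranges overlapped across all 4 groups, and medians differed by less than the SD between cells, 0.299 to 0.347 percentage points. Mesenchymal cells had the lowest median, although their summed share was above that of Dorsal, so the order of the groups was not the same on the 2 scales. Without the cells that carried macrophage markers the summed shares were 1.71% in Dorsal and 2.15% in Ventral.

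**Figure D1:**
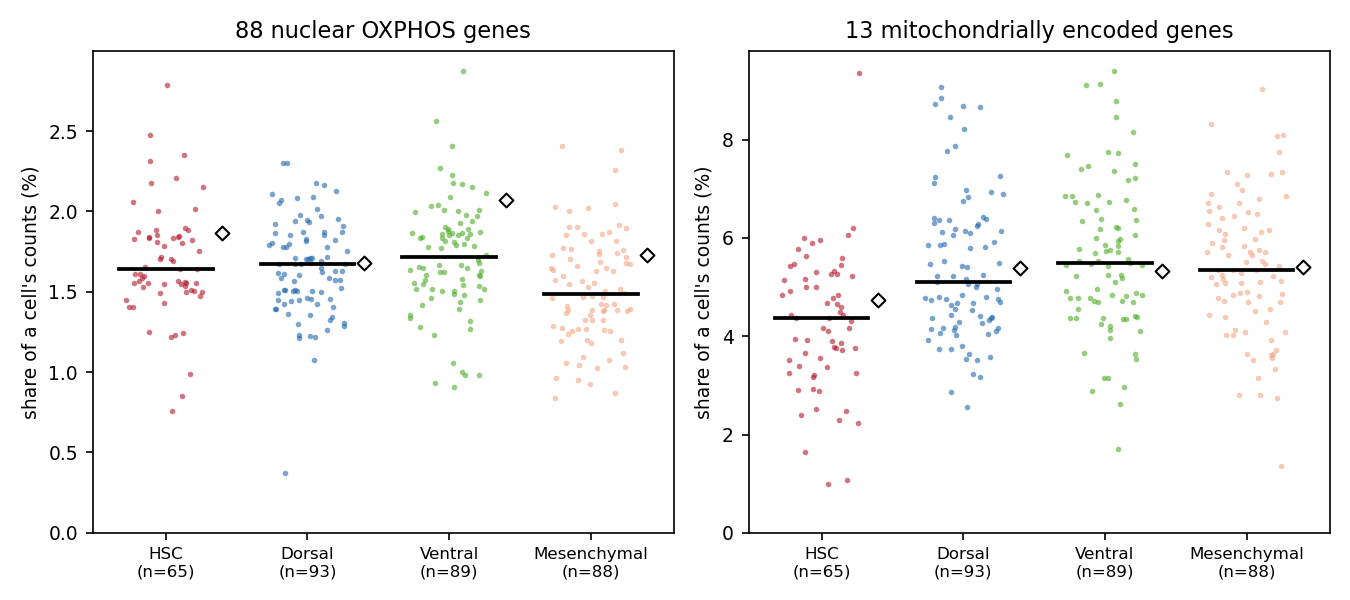
Share of each cell's counts (%) taken by the 88 nuclear OXPHOS genes (left) and by the 13 mitochondrially encoded genes (right) in the 4 sorted groups; points are cells, bars are medians over cells and diamonds are the share in the summed counts of the pool. The clouds overlap in both panels, the nuclear medians lie between 1.48% and 1.72%, and the HSC median of the mitochondrially encoded genes, 4.38%, lies below the other 3.

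The mitochondrially encoded genes stood lower in HSC than in the other groups. They took 4.73% of summed counts in HSC, against 5.39%, 5.33% and 5.41% in Dorsal, Ventral and Mesenchymal, and 5.24% in Ventral without its deepest cell. Medians over cells were 4.38%, 5.10%, 5.48% and 5.35% in the same order. The HSC cells ran from 0.997% to 9.36% and the other cells from 1.36% to 9.39%, so single cells overlapped throughout. The SD between cells was 1.38 to 1.53 percentage points, larger than the difference between any pair of medians. Dock10 and Cep97, a pair of genes with an unusually large share of all reads, held 14.3% of HSC counts, 8.06% in Dorsal, 5.11% in Ventral and 11.6% in Mesenchymal. With both left out of the totals, the mitochondrially encoded share of the HSC pool was 5.52%. The other pools had 5.86% (Dorsal), 5.61% (Ventral) and 6.12% (Mesenchymal), so in the summed counts HSC stayed lowest but lay close to Ventral. For the median cell, Dock10 and Cep97 held 15.5% of counts in HSC and 7.58% in Ventral, the latter above its pooled value. Whether the gap between the cell medians of HSC and Ventral depends on these genes was not tested.

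Across the 13 genes the difference was not shared evenly, and no gene differed 2-fold between any pair of groups. COX1, the catalytic core of complex IV that reduces oxygen, was at 9171 CPM in HSC and at 14193, 13488 and 13549 CPM in Dorsal, Ventral and Mesenchymal, 14167 CPM in Ventral without the deepest cell. Its log2 ratios of HSC to the other groups were -0.63, -0.56 and -0.56. COX2 and COX3, the other core subunits, gave 4212 and 6475 CPM in HSC against 3507 to 4005 and 6254 to 8008 CPM elsewhere. For COX2 the order was thus the reverse of that for COX1.

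ATP6, the proton channel subunit of the ATP synthase, was highest in HSC, at 8228 CPM against 6375 in Dorsal, 7280 in Ventral (6780 without the deepest cell) and 7257 in Mesenchymal. ATP8, which overlaps it, gave 337 CPM in HSC and 261 to 302 elsewhere. CYTB, the mitochondrial subunit of complex III, was at 5701 CPM in HSC, while Dorsal had 6673, Ventral 7276 (6571 without the deepest cell) and Mesenchymal 7699. Of the complex I genes, ND5 and ND6 were lower in HSC, at 1043 and 138 CPM against 1278 to 1791 and 169 to 239. ND1 was at 6492 CPM in HSC and 7166 to 7692 elsewhere, ND2 at 971 and 820 to 875, ND3 at 249 and 219 to 261, ND4 at 3859 and 3786 to 4079, and ND4L at 440 and 414 to 437. The library kit does not mark strand, so reads of ND6, coded on the opposite strand, and of neighbours that overlap (ATP6 with ATP8, ND4 with ND4L) cannot be fully told apart.

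**Figure D2:**
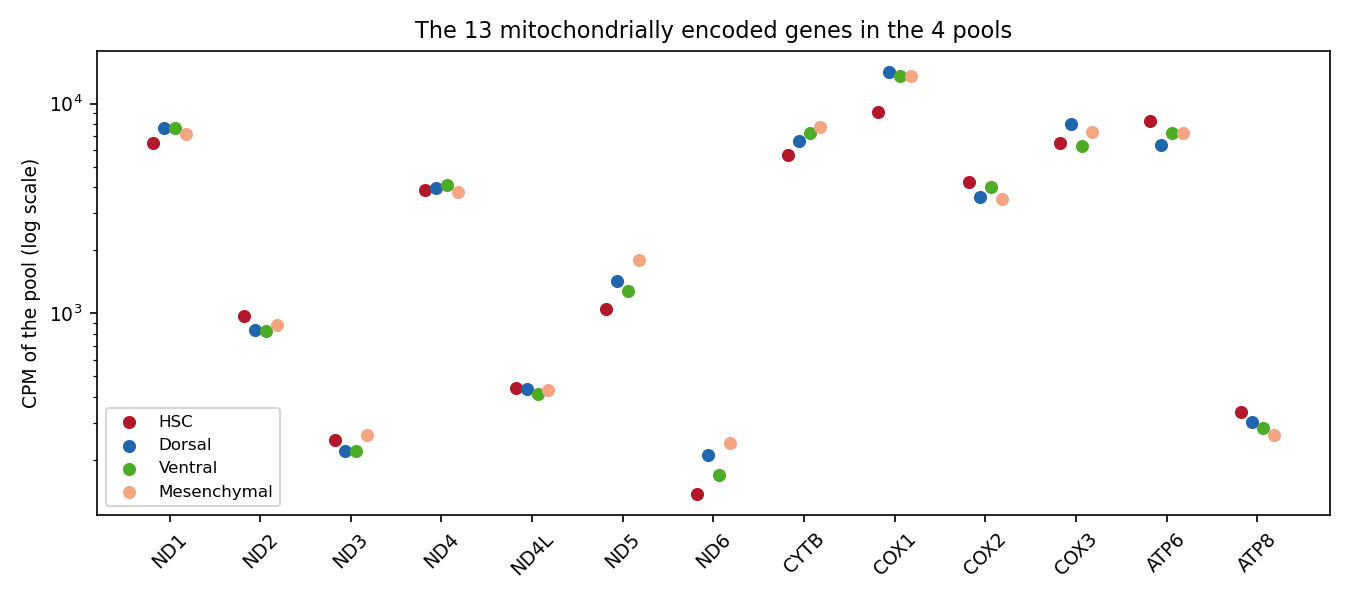
Level of the 13 mitochondrially encoded genes in the summed counts of the 4 pools (CPM, log scale). COX1 lies at 9171 CPM in HSC and at 13488 to 14193 CPM in the other pools, whereas ATP6 is highest in HSC at 8228 CPM.

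Within the nuclear set the complexes kept the same rank in the 4 pools. In each pool complex V took the largest share, 0.556% to 0.651% of counts, followed by complex I with 0.466% to 0.613%. Complex IV held 0.348% to 0.432%, complex III 0.168% to 0.229% and complex II 0.075% to 0.121%. The complex I assembly factors together held 0.024% to 0.036%. Complexes I, II and III were highest in Ventral, at 0.613%, 0.121% and 0.229%, and without the deepest cell these fell to 0.534%, 0.096% and 0.191%. That cell had the highest share of its 89-cell pool for complexes II and III, 0.229% and 0.396%. Over cells, the complex II medians were 0.070% in HSC against 0.079%, 0.088% and 0.076% in Dorsal, Ventral and Mesenchymal.

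Counts of mitochondrial genes were set against those of nuclear genes of the same complex. For complex IV, where 3 mitochondrial genes supply the catalytic core, the mitochondrial counts were 4.59 times the nuclear ones in HSC, while Dorsal had 7.40 times, Ventral 5.64 times (6.32 without the deepest cell) and Mesenchymal 6.73 times. The median cell gave 4.68, 7.49, 7.64 and 8.11. Nuclear complex IV genes were highest in HSC, 0.432% against 0.348% in Dorsal, 0.421% in Ventral and 0.362% in Mesenchymal, while the mitochondrial ones were lowest there, 1.99% against 2.58%, 2.38% and 2.44%. For complex V the ratio was 1.36 in HSC against 1.14, 1.16 and 1.35 in Dorsal, Ventral and Mesenchymal, and the median cell had 1.16 against 1.12, 1.21 and 1.52, within the range of the other groups. For complex I it was 2.58 in HSC against 3.17, 2.39 (2.66 without the deepest cell) and 2.74, and for complex III 2.92 against 3.97, 3.18 (3.45) and 4.52. HSC was thus lowest for complexes III and IV in the pools, and for complex I only without that cell. Over all cells, the complex I medians were 2.58 in HSC against 3.05, 3.33 and 3.39 in Dorsal, Ventral and Mesenchymal. Those of complex III were 3.04 against 3.73, 3.92 and 4.99, so HSC had the lowest median for both. Single cells spread widely, from 0.775 to 9.76 for complex IV in HSC and from 1.91 to 19.7 in Mesenchymal.

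Levels between genes were compared per length, as CPM per kilobase of the median protein-coding transcript, averaged over the 4 groups. Ndufa4 (843), Cox6b1 (821), Cox4i1 (747) and Atp5b (723), the catalytic beta subunit of the ATP synthase, stood at the top of the 88, with Uqcrh, the hinge protein of complex III, at 641 and Atp5l, a membrane subunit of complex V, at 628. Within complex I, Ndufb8 (465) and Ndufa2 (434) were highest and Ndufb4 (39.8) and Ndufb2 (52.1) lowest. Complex II ran from 142 for Sdha to 252 for Sdhc, and complex III from 184 for Uqcrc2 to 641 for Uqcrh. The assembly factors lay far lower, from 14.8 for Ndufaf1 to 100.06 for Ndufaf2. With the merged exon length of a gene in place of its median coding transcript, 6 of the 10 highest members were shared and the rank correlation over the 88 members was 0.75.

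The 3 genes of subunit c, which code for the same mature ring protein with different targeting sequences, contributed unequally. Atp5g3 supplied 42.3% of their summed level per length in HSC, while Dorsal had 53.5%, Ventral 44.9% and Mesenchymal 47.01%. Atp5g2 supplied 33.7% to 42.5% and Atp5g1 10.5% to 16.9%. With merged exon lengths Atp5g1 supplied 14.8% to 23.3%, and Atp5g2 then passed Atp5g3 in HSC, Ventral and Mesenchymal, so the order of these genes depends on the length used. Many respiratory genes have near-identical pseudogene copies, and how reads were divided among copies is not stated, so levels of single genes are uncertain to that extent.

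Few members differed 2-fold between groups. A gene was called where log2 of the ratio of (CPM + 1) reached a 2-fold difference, a rule of size with no test. HSC against Dorsal gave 3 of 88 members higher in HSC and 0 higher in Dorsal, where 11.3% and 25.3% of all tested genes were called. HSC against Ventral gave 2 higher in HSC and 8 in Ventral (all genes 14.1% and 24.5%). HSC against Mesenchymal gave 1 higher in HSC and 0 in Mesenchymal (16.6% and 22.6%). Dorsal against Ventral gave 0 and 3 (10.2% and 8.29%), Dorsal against Mesenchymal 0 and 3 (17.6% and 9.68%), and Ventral against Mesenchymal 7 and 2 (17.2% and 12.9%). Without the deepest Ventral cell, HSC against Ventral gave 2 and 1, Dorsal against Ventral 0 and 2, and Ventral against Mesenchymal 1 and 1. With all cells, in each comparison the share of members called, at most 10 of 88 in both directions together, was below that of all genes. Without the cells that carried macrophage markers, 8 members in place of 3 were called for Dorsal against Ventral, all higher in Ventral. The share of all genes called without these cells is not given here, so this count has no background beside it. The part of these cells in that comparison was not tested further.

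The members' median log2 fold was 0.16 for HSC against Dorsal, where the median of all tested genes was -0.26. It was -0.14 against -0.21 for HSC against Ventral, and 0.10 against -0.10 for HSC against Mesenchymal. For Dorsal against Ventral it was -0.32 against 0.14, for Dorsal against Mesenchymal -0.13 against 0.15, and for Ventral against Mesenchymal 0.19 against 0.09. Relative to the median gene, members thus stood 0.42 higher in HSC than in Dorsal on the log2 scale and 0.46 lower in Dorsal than in Ventral. Without the deepest Ventral cell the medians of members and of all genes were -0.0039 and -0.28 for HSC against Ventral, -0.16 and 0.01 for Dorsal against Ventral, and 0.02 and 0.17 for Ventral against Mesenchymal. The difference between members and all genes then went from 0.07 to 0.27 for HSC against Ventral and from -0.46 to -0.17 for Dorsal against Ventral. For Ventral against Mesenchymal it turned from 0.09 to -0.14, and to -0.09 with each cell weighted equally. With each cell weighted equally the members' medians for HSC against Dorsal and Dorsal against Ventral were 0.04 and -0.04, against -0.28 and -0.02 for all genes, so members and all genes then differed by -0.01 between Dorsal and Ventral. For Dorsal against Mesenchymal the members' median turned from -0.13 to 0.10 under equal weighting. These comparisons share their groups and are not independent of each other.

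Over the 4 groups, 70 of the 88 members stayed within 2-fold from the lowest to the highest pool, and 18 did not. The median span was 0.58 on the log2 scale, against 1.29 for the 13363 genes with at least 100 counts. Many members are abundant, so the spans were also taken at a mean level of at least 20 CPM: 83 members had a median span of 0.56, against 1.03 for 7075 other genes, and 16.9% of the former and 51.99% of the latter passed 2-fold. This floor does not match members and other genes for level. Without the deepest Ventral cell 6 of the 88 members passed 2-fold, and with each cell weighted equally 3 did.

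**Figure D3:**
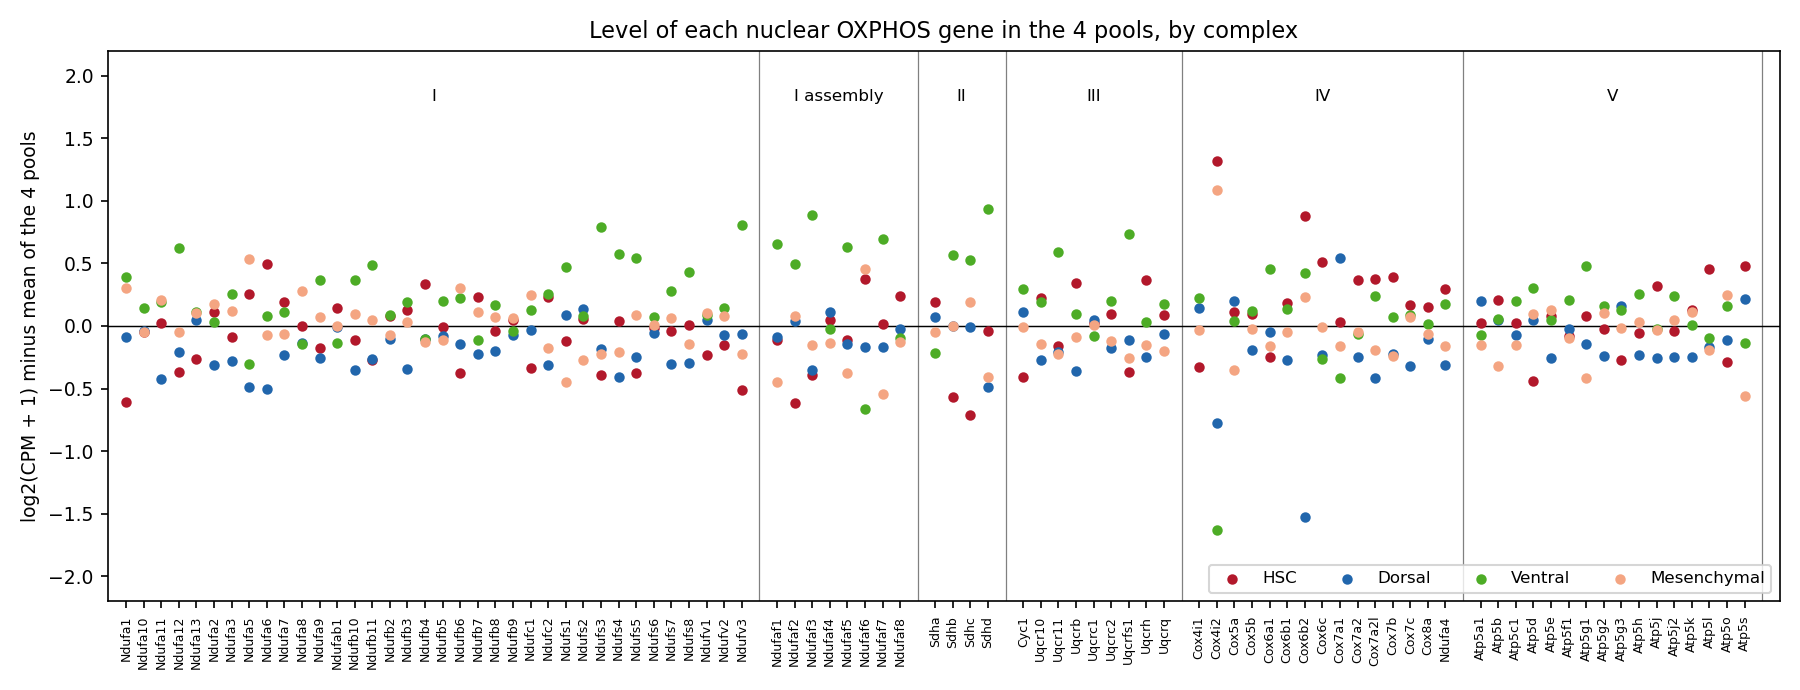
Level of each of the 88 nuclear OXPHOS genes in the 4 pools as log2(CPM + 1) minus the mean of the 4 pools, ordered by complex; each point is the summed counts of 1 pool, the deepest Ventral cell included. Most genes lie within 0.5 of their mean in every pool, and Cox4i2 and Cox6b2 of complex IV spread most.

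Complex IV held the members with the widest differences. Cox4i2 (chr2:152754173-152765037, plus strand, GRCm38) codes for an isoform of subunit IV known from lung and oxygen-sensing cells. Its pooled level was 9.91 CPM in HSC (95% Poisson limits 9.24 to 10.6), 1.56 in Dorsal (1.33 to 1.81), 0.417 in Ventral (0.305 to 0.556) and 8.32 in Mesenchymal (7.65 to 9.03). These limits cover counting error alone, and reads of a plate library without molecular identifiers are not independent molecules. In single cells it ran from 0 to 60.8 CPM in HSC with a median of 0.644, whereas the median was 0 in the other groups, with highest cells at 59.6, 21.2 and 100.5 CPM. Log2 folds were 2.09 for HSC against Dorsal, 2.95 for HSC against Ventral, -1.87 for Dorsal against Mesenchymal and -2.72 for Ventral against Mesenchymal. A single cell held 43.2% of the Mesenchymal counts and another 44.2% of the Dorsal counts. Without the highest cell of each pool the levels were 8.90, 0.878, 0.245 and 4.90 CPM.

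To compare cells at equal depth, each was thinned at random to 310000 counts, which left out 1 HSC, 1 Dorsal, 9 Ventral and 19 Mesenchymal cells. Cox4i2 then had at least 5 counts in 21 of 64 HSC cells (32.8%, 95% Clopper-Pearson limits 21.6 to 45.7). The share was 3 of 92 in Dorsal (3.26%, 0.678 to 9.23), 2 of 80 in Ventral (2.50%, 0.304 to 8.74) and 9 of 69 in Mesenchymal (13.04%, 6.14 to 23.3). Before thinning the shares were 44.6%, 6.45%, 4.49% and 15.9%. The common form Cox4i1 (chr8:120668222-120674207, plus strand) had at least 5 counts in every thinned cell. It was at 438 CPM in HSC against 608, 644 and 538 in Dorsal, Ventral and Mesenchymal. Per length, Cox4i2 made up 2.26% of the sum of both forms in HSC, while Dorsal had 0.261%, Ventral 0.0661% and Mesenchymal 1.55%. The restricted form was thus a small fraction of subunit IV RNA in all groups.

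Cox6b2 (chr7:4751792-4753094, minus strand) codes for the form of subunit VIb best known from testis. It was at 18.1 CPM in HSC against 2.59, 12.9 and 11.1 in Dorsal, Ventral and Mesenchymal. The deepest Ventral cell held 54.6% of the Ventral counts, and without it the level was 7.17 CPM. Single cells ran from 0 to 91.5 CPM in HSC (median 10.4), to 38.2 in Dorsal (median 0), to 114 in Ventral (median 0) and to 90.9 in Mesenchymal (median 4.33). Log2 folds were 2.41 for HSC against Dorsal, -1.76 for Dorsal against Mesenchymal and -1.95 for Dorsal against Ventral, the last -1.19 without the deepest Ventral cell. HSC against Ventral was not called with all cells. Without the deepest Ventral cell it was, at 18.1 CPM in HSC against 7.17 in Ventral. After thinning, 23 of 64 HSC cells had at least 5 counts (35.9%, 24.3 to 48.9), 6 of 92 Dorsal cells (6.52%, 2.43 to 13.7), 13 of 80 Ventral cells (16.2%, 8.95 to 26.2) and 20 of 69 Mesenchymal cells (28.99%, 18.7 to 41.2). Dorsal was thus low for both restricted genes, whereas Ventral was low for Cox4i2 and between the others for Cox6b2. The common form Cox6b1 (chr7:30616861-30626151, minus strand) was at 450, 328, 434 and 384 CPM.

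**Figure D4:**
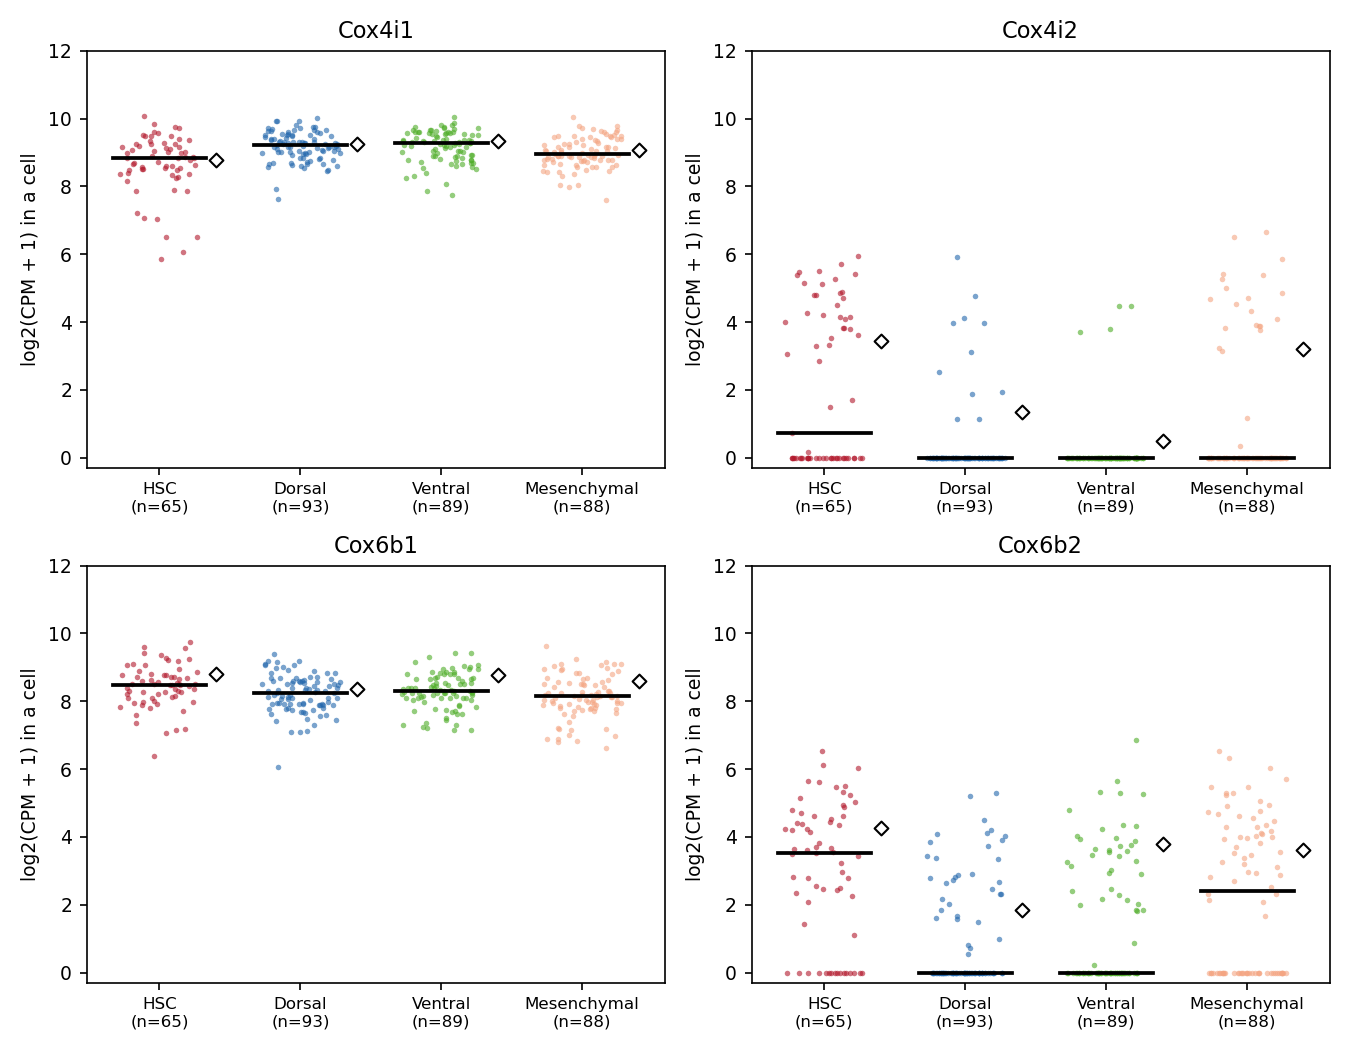
Level in single cells, as log2(CPM + 1), of the common subunit genes Cox4i1 and Cox6b1 (left) and the restricted forms Cox4i2 and Cox6b2 (right) in the 4 sorted groups; points are cells, bars medians over cells and diamonds the summed counts of the pool. The common forms are above 0 in every cell, and the restricted forms are at 0 in many cells of each group.

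Cox7a1, the heart and skeletal muscle form of subunit VIIa, was at 1.12, 2.01, 0.554 and 0.856 CPM in HSC, Dorsal, Ventral and Mesenchymal, and had at least 5 counts in 2 of 64, 3 of 92, 1 of 80 and 1 of 69 thinned cells. Its common form Cox7a2 was at 336, 219, 249 and 252 CPM in the same order. Cox6a1 was at 271, 312, 442 and 288 CPM, Cox8a at 368, 308, 333 and 315, and Ndufa4 at 469, 307, 432 and 342. Of the 15 complex IV members, 11 were above Dorsal in HSC and 13 above Mesenchymal, with median log2 folds of 0.49 and 0.23, and 0.28 and 0.39 with each cell weighted equally. All tested genes had medians of -0.26 and -0.10 in these comparisons.

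Complex II, succinate dehydrogenase, is also an enzyme of the citric acid cycle. Sdhb, its iron-sulfur subunit (chr4:140961203-140979193, plus strand), was at 164 CPM in HSC, while Dorsal had 243, Ventral 361 (316 without the deepest cell) and Mesenchymal 243. Single cells ran from 0 to 289 CPM in HSC (median 168), from 1.38 to 549 in Dorsal (median 232), from 56.3 to 656 in Ventral (median 228) and from 2.68 to 495 in Mesenchymal (median 185). HSC had the lowest median, and its cells overlapped those of every other group.

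Sdhc, a membrane anchor (chr1:171127165-171150603, minus strand), was at 119 CPM in HSC against 195, 284 (211) and 225 in Dorsal, Ventral and Mesenchymal. Cell medians were 92.5, 181, 176 and 192 CPM, so HSC was lowest on this scale too. Sdhd, the other anchor (chr9:50596357-50603812, minus strand), was at 175, 128, 345 and 135 CPM, but 58.7% of its Ventral counts came from the deepest cell and the Ventral level without it was 175 CPM. Sdha, the flavoprotein that oxidises succinate (chr13:74322254-74350280, minus strand), was at 291, 268, 219 and 247 CPM. No complex II gene was called in 3 of the 6 comparisons. The calls of Sdhb and Sdhc for HSC against Ventral (log2 -1.13 and -1.24) and of Sdhd for Ventral against Dorsal and Mesenchymal were no longer reached without the deepest Ventral cell. The order HSC below Dorsal for Sdhb and Sdhc, log2 -0.57 and -0.70, does not involve that cell.

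**Figure D5:**
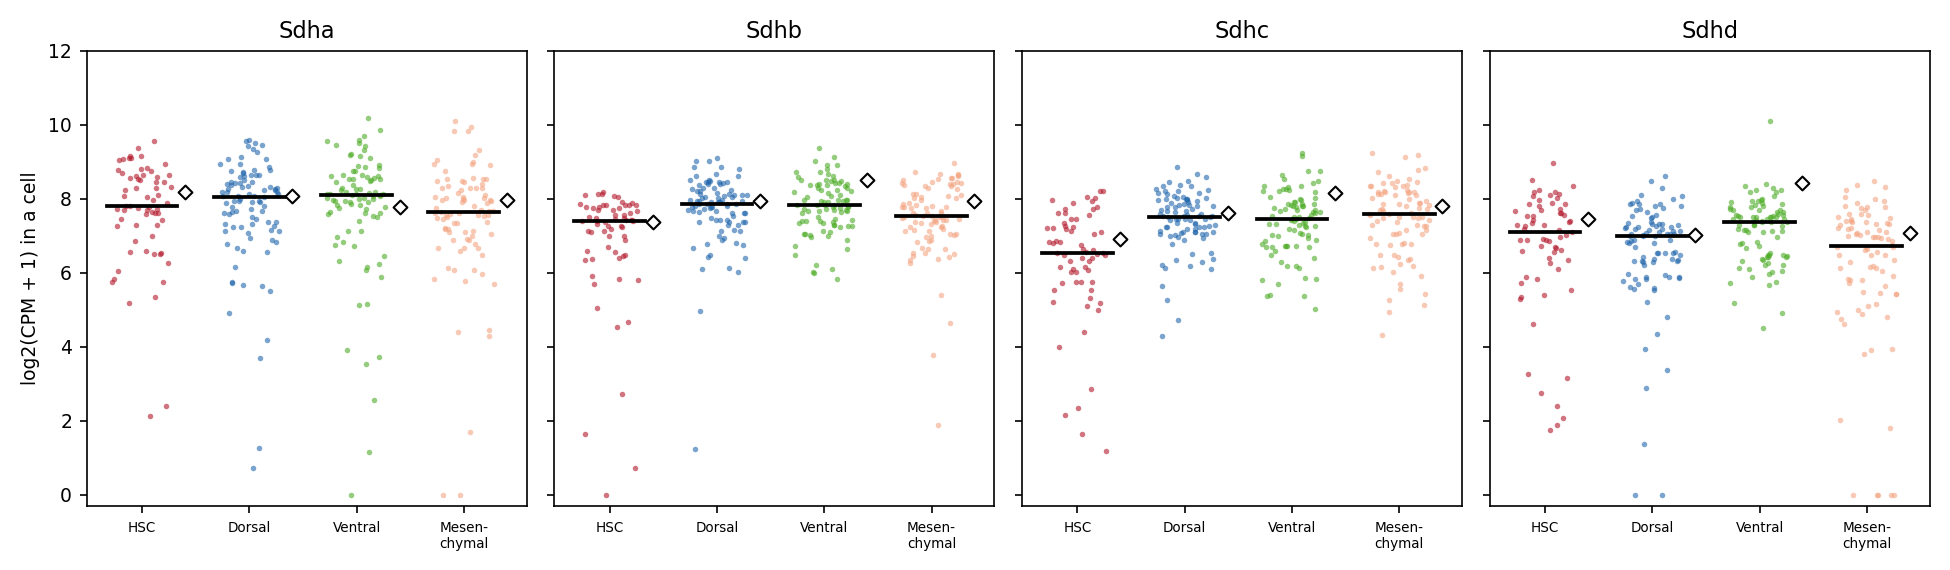
Level in single cells, as log2(CPM + 1), of the 4 succinate dehydrogenase genes in the sorted groups (65 HSC, 93 Dorsal, 89 Ventral and 88 Mesenchymal cells); points are cells, bars medians over cells and diamonds the summed counts of the pool. The Ventral diamonds of Sdhb, Sdhc and Sdhd lie above their medians, and HSC has the lowest median of Sdhb and Sdhc.

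In complex I, 1 structural gene was called between HSC and Dorsal. Ndufa6, an accessory subunit of the matrix arm (chr15:82350140-82354322, minus strand), was at 165 CPM in HSC, while Dorsal had 81.98, Ventral 123 (102 without the deepest cell) and Mesenchymal 111. Its cells ran from 16.4 to 397 CPM in HSC with a median of 151, while the medians were 77.8, 74.5 and 87.5 in Dorsal, Ventral and Mesenchymal. The HSC lower quartile, 118 CPM, lay above the Dorsal upper quartile, 105 CPM, although the full ranges overlapped. The log2 fold of HSC against Dorsal lay just past the threshold, and was 0.95 with each cell weighted equally.

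Ndufa5, an accessory subunit of the matrix arm, was at 84.99 CPM in HSC against 50.4, 57.4 and 103 in Dorsal, Ventral and Mesenchymal, and was called for Dorsal against Mesenchymal at log2 -1.02. Its cell medians were 60, 46.2, 48 and 80.8 CPM, in the same order of groups. Ndufa1, a membrane-arm subunit, was at 59.05 CPM in HSC, while Dorsal had 85.2, Ventral 119 (94.2) and Mesenchymal 112. HSC was the lowest on the scale of cell medians as well, 47.9 against 66.05 to 82.1 CPM. Ndufs3, a core subunit, and Ndufv3, an accessory flavoprotein subunit, were highest in Ventral at 117 and 188 CPM, and without the deepest cell at 84.1 and 127 CPM. The other groups ran from 50.7 to 58.8 and from 74.7 to 102 CPM. The calls of Ndufa1, Ndufs3 and Ndufv3, all for comparisons with Ventral, ended without that cell. The remaining 31 structural complex I genes stayed within 2-fold in all comparisons, Ndufb4, Ndufab1 and Ndufa10 among them.

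The assembly factors were sparse and depended most on single cells. Ndufaf1, a factor of the membrane-arm assembly complex, was at 18.9, 19.3, 32.8 and 14.8 CPM in HSC, Dorsal, Ventral and Mesenchymal, and at 40.3 CPM in Ventral without the deepest cell. Ndufaf3 was at 21.1, 21.8, 52.8 (33.6) and 25.1 CPM, Ndufaf7, a methyltransferase, at 45.9, 40.2, 73.8 (41.98) and 30.8, and Ndufaf2 at 34.6, 55.1, 76.04 (53.1) and 56.8. Ndufaf5, a hydroxylase, was at 24.6, 23.9, 41.8 and 20.2 CPM, but its Ventral level without the deepest cell was 13.6 CPM, and the direction of Ventral against Mesenchymal then turned, from log2 1.01 to -0.54. Ndufaf6 was at 20.6, 13.8, 9.50 (11.7 without the deepest Ventral cell) and 21.8 CPM. The calls of Ndufaf6 for HSC against Ventral and for Ventral against Mesenchymal, at log2 1.04 and -1.12, ended without that cell, at 0.77 and -0.85. Of 8 factors, 4 were called higher in Ventral than in Mesenchymal, where 17.2% of all genes were. Without the deepest cell 1 was, Ndufaf1, and no other factor was then called in a comparison with Ventral.

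In complexes III and V a single gene each was called. Uqcrfs1, the Rieske iron-sulfur protein of complex III, was at 223, 267, 480 and 242 CPM, and at 312 CPM in Ventral without the deepest cell, which ends its call for HSC against Ventral. Cyc1, cytochrome c1, was at 128, 184, 209 and 169 CPM. Uqcrb and Uqcrh were highest in HSC, at 356 and 388 CPM against 218 to 299 and 253 to 306. Atp5s, a factor related to the coupling of the ATP synthase, was at 20.6, 17.04, 13.1 and 9.50 CPM, and called for HSC against Mesenchymal at log2 1.04. A single cell held 27.2% of its HSC counts. Without the highest cell of each pool the levels were 15.9 CPM in HSC and 8.61 in Mesenchymal. The log2 fold was 1.16 with each cell weighted equally, but 0.72 without the deepest 5% of cells, which ends the call. Atp5s was detected in 31 of 65 HSC cells and 22 of 88 Mesenchymal cells. After thinning, 21 of 64 (32.8%, 21.6 to 45.7) and 14 of 69 (20.3%, 11.6 to 31.7) had at least 5 counts, with limits that overlap. Of the catalytic genes of complex V, Atp5a1 was at 795, 899, 746 and 704.3 CPM and Atp5b at 1589, 1420, 1429 and 1101.

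Across cells of a group the members moved together. The mean correlation of a member with the summed other members was taken on log2(CPM/10 + 1) and averaged over the 4 groups. Its median was 0.42 over the 82 members with at least 20 CPM in each group. Over the 4872 other genes past that floor, taken with the summed members, the median was 0.078. The floor does not match members and other genes for level. These values are descriptions over cells that share a pool and differ in depth. Cox7c (0.64), Atp5j2 (0.63), Cox8a (0.62), Atp5h (0.62) and Ndufa4 (0.61) were highest. Cox4i2 (-0.054), Atp5s (0.024), Cox7a1 (0.039), Ndufaf5 (0.058) and Ndufs1 (0.064) were lowest, and all but Ndufs1 are sparse genes.

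Shares of complex I and complex IV correlated at 0.77 in HSC against 0.82, 0.83 and 0.83 in Dorsal, Ventral and Mesenchymal (65, 93, 89 and 88 cells). Complex I and complex V gave 0.69 to 0.79. Complex II was less tied to the rest, at 0.33 to 0.51 with complex I. The nuclear share had no common relation with the mitochondrially encoded share, with 0.32 in HSC, while Dorsal had -0.20, Ventral 0.00 and Mesenchymal 0.04. It correlated with log10 of a cell's total counts at 0.65, 0.14, 0.51 and 0.57, so depth moves with the share in 3 of the 4 groups, and its part in these relations was not tested. The nuclear share also correlated with that of the cytosolic ribosomal protein genes at 0.59 to 0.65 and of the mitochondrial ribosomal protein genes at 0.72 to 0.76.

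The 10 non-members whose pattern over cells was most like the summed members were Ppia (0.76), Rpl19 (0.72), Txn1 (0.63), Rpl7a (0.62), Psmb6 (0.62), Psmb7 (0.61), Rpl13 (0.61), Erh (0.61), Sem1 (0.61) and Chchd2 (0.60), each a mean over the 4 groups. Members are also short: their median coding transcript is 710.5 bases, against 2242 for all genes with a length. Across the 88 members, the fold of Dorsal against Mesenchymal had a rank correlation of 0.40 with length, and that of HSC against Dorsal -0.28, against 0.04 and -0.10 across all genes. The others were -0.23 for HSC against Ventral, -0.02 for HSC against Mesenchymal, 0.26 for Ventral against Mesenchymal and 0.05 for Dorsal against Ventral. Without the deepest Ventral cell these became -0.33 for HSC against Ventral, 0.49 for Ventral against Mesenchymal and -0.10 for Dorsal against Ventral.

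Since members moved together over cells, their promoters were searched, in RefSeq windows of GRCm38.p6 from 250 bases before to 50 after the start, for motifs on both strands. Of the 88 members, 72 matched by symbol, with 77 windows. GCATGCG, part of the palindrome bound by NRF1, a regulator of respiratory genes, was in 16.9% of the 77 windows. It was in 5.79% of the 13145 windows of genes in the count table and 3.58% of all 32851 windows. CCGGAAG, bound by GABP and other ETS factors, was in 23.4%, 15.7% and 8.86%, and AAGATGG, bound by YY1, in 14.3%, 6.62% and 6.34%. GGGCGG, a box of SP and KLF factors, was in 42.9%, 60.5% and 35.7%, less often among members than among genes in the table. A match is a description of the letters and not a site, and the motifs may overlap their own reverse complement.

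The bases upstream of 5 members that the results name are given to show the letters behind these counts. They come from the windows of Atp5l, Ndufa6 and Sdhb, which hold the NRF1 motif, and of the restricted genes Cox6b2 and Cox7a1, which do not. Each is the part of the 250 bases before the RefSeq start that overlaps no exon of GENCODE M21, read 5′ to 3′ on the gene's strand, with matches to any of the 4 motifs in capitals. They are chr9:44920752-44920992 (minus strand), chr15:82354323-82354541 (minus), chr4:140961021-140961202 (plus), chr7:4753095-4753225 (minus) and chr7:30183921-30184143 (plus), all GRCm38.p6.
Atp5l: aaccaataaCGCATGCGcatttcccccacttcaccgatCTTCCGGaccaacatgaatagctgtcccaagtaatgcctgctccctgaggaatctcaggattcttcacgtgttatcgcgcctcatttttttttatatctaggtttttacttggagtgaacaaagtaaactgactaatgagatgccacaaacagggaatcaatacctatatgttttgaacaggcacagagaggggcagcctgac
Ndufa6: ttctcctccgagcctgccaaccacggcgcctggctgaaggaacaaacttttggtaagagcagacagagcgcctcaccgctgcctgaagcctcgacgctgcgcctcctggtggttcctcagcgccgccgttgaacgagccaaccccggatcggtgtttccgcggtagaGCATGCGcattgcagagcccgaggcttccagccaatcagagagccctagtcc
Sdhb: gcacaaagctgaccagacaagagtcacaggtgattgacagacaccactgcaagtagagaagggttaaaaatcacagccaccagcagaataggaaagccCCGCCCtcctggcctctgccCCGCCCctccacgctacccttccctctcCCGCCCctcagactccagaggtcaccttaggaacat
Cox6b2: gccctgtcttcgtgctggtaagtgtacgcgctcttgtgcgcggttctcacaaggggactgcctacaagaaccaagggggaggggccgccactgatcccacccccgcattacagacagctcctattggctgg
Cox7a1: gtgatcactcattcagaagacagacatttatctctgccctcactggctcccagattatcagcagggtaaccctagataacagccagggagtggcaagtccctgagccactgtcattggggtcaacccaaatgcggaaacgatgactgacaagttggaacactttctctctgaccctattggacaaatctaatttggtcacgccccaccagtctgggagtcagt
The capitals mark, in Atp5l, the NRF1 motif on both strands, 240 and 241 bases before the start, and the ETS motif 212 before it. In Ndufa6 they mark the NRF1 motif 83 bases before the start, and in Sdhb 3 copies of the SP box at 152, 132 and 104 bases, its NRF1 match lying nearer the start than the printed part. The Cox6b2 and Cox7a1 stretches hold none of the 4 motifs, which says only that these letters are not in the printed bases.

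Of 33 assembly factors outside the rule, 4 were called higher in HSC than in Dorsal and 1 higher in Dorsal, beside 11.3% and 25.3% of all genes, with a median log2 fold of 0.05. Cox17, the copper chaperone of complex IV, was at 320 CPM in HSC against 142, 228 and 136 in Dorsal, Ventral and Mesenchymal, with cell medians of 254, 120, 128 and 78.3. Sco1, another copper carrier, was at 22.6, 29.8, 38.2 and 11.8 CPM. Tmem126b, a complex I assembly factor, was at 32.6, 48.9, 140 and 91.8 CPM, and its fold for HSC against Ventral was -2.07, or -0.77 without the deepest Ventral cell.

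The carriers that exchange ADP and ATP differed by gene. Slc25a4, the translocase form of heart and muscle, was at 298 CPM in HSC and at 678, 731 and 710.5 CPM in Dorsal, Ventral and Mesenchymal, with cell medians of 267, 671, 628 and 595. Slc25a5, the form of dividing cells, was at 730, 863, 720 and 343 CPM, lowest in Mesenchymal. Ucp2, an inner membrane carrier of the uncoupling protein family, was at 158, 221 and 264 CPM in HSC, Dorsal and Ventral and 33.3 CPM in Mesenchymal, where the median cell had 1.41. Of the 8 carriers tested, 1 was called for HSC against Dorsal, higher in Dorsal (all genes 25.3%), and 2 for Dorsal against Mesenchymal, both higher in Dorsal (17.6%).

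Among the 13 electron carrier genes, 4 were called higher in Ventral than in Mesenchymal and 0 lower (all genes 17.2% and 12.9%). Leaving out the deepest Ventral cell gave 5 and 1. Coq2, which joins the ring and tail of ubiquinone, was at 45.6, 54.7, 114 and 20.98 CPM, and 77.9 in Ventral without the deepest cell. Of the 18 citric acid cycle and pyruvate dehydrogenase genes, 2 were called higher in HSC than in Dorsal and 0 lower (all genes 11.3% and 25.3%). These were Pdk1 and Pdk3, kinases that switch pyruvate dehydrogenase off. Pdk1 was at 44.6, 15.6, 11.8 and 8.48 CPM and its cell medians at 6.45, 0, 0 and 0. Pdk3 was at 101 CPM in HSC, while Dorsal had 28.2, Ventral 82.4 (36.6 without the deepest cell) and Mesenchymal 81.5.

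Of 17 hypoxia response genes, 2 were called higher in HSC than in Dorsal and 3 higher in Dorsal (all genes 11.3% and 25.3%), with a median log2 fold of -0.28, beside -0.26 for all genes. Egln3, a hydroxylase that marks HIF proteins for breakdown, was at 13.9 CPM in HSC, 0.120 in Dorsal and 0.561 in Ventral, and had 0 counts in Mesenchymal, so that with 3 counts as the floor of that pool HSC was at least 318-fold higher. It was detected in 30 of 65 HSC cells. The biogenesis regulators were low: Ppargc1a, a coactivator of respiratory genes, was at 8.41, 11.2, 1.79 and 2.90 CPM. Nrf1 was at 39.6, 37.4, 155 and 60.8 CPM, with a log2 fold for Dorsal against Ventral of -2.02, or -0.64 without the deepest Ventral cell. Esrrg was at 0, 0.884, 0.401 and 9.77 CPM, and 1 cell held 87.5% of its Mesenchymal counts.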

How the data were processed

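The authors deposited a table of estimated counts per gene and cell and a table of log2 values, and per the submitters' processing notes used kallisto 0.43.1 and the mouse build GRCm38. Which annotation, gene summing and filters they used is not given in the sources used here. The deposited log2 values equal log2 of the estimated count over a size factor of the cell, plus 1, with factors from 0.0985 to 19.6. Of 14109 entries, 661 without a symbol (2.96% of counts) and 83 second copies with identical values (0.294%, Uqcrc1 and Ndufs3 among them) were left out, which leaves 13365 genes.

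The counts of all cells in a group were added up, since cells are not replicates, and scaled to CPM with exact Poisson limits. Folds are log2 ratios of (CPM + 1) of genes reaching 100 counts in the 2 groups together, called at 2-fold, with no test. Replicate numbers follow accession order and name cells only. Only for the lower bound of a fold was a pool with 0 counts set at a floor of 3 counts. Cell shares used cells thinned to 310000 counts and Clopper-Pearson limits at 95%. Lengths and coordinates come from GENCODE M21 and promoters from RefSeq (GRCm38.p6). Named genes were the mitochondrially encoded genes, restricted subunit forms with their common forms, the subunit c and Sdh genes, members called at 2-fold, the 2 highest and 2 lowest per length in a complex, the 5 largest folds each way, 3 genes per other list and the 10 most alike non-members. Printed promoters were chosen after their matches were seen. Members and lists were chosen with earlier results of these data known. The largest correlation between the cells of a group was 0.693 to 0.784, so none were copies. Wells received single sorted cells, and doublets were not called. The fold rule was tested on simulated data. Python 3.11.15, numpy 2.4.6, pandas 2.3.3, scipy 1.17.1 and matplotlib 3.10.9 were used. Alternatives covered cell weighting, the deepest cells, totals, size factors, pseudocount, filter, threshold, thinning and gene length.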

Additional observations from a re-analysis of the deposited data

How the results depend on the processing

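No paired analysis was possible because replicate numbers follow accession order and the labels name no embryo. Of 246 alternative log2 folds of the called members, 241 kept their sign and 5 did not: Ndufaf5 for Ventral against Mesenchymal was -0.16 with cells weighted equally, -0.54 without the deepest Ventral cell, -0.14 with the authors' size factors and -0.94 without the Ventral cells sharing its index, and Ndufaf6 was 0.01 with size factors. The called members were picked for their large folds in the same counts, and a pseudocount cannot turn a sign. A kept sign was thus largely fixed in advance and is no support for a fold. Only Cox4i2 and Cox6b2 were still called under equal weighting, without the deepest Ventral cell, without the deepest 5% of cells and with size factors. These were 6 pairs of gene and comparison. Cox4i2 held for HSC against Dorsal and Ventral, and for Dorsal and Ventral against Mesenchymal. Cox6b2 held for HSC against Dorsal and Dorsal against Mesenchymal. The alternative that leaves out Ventral cells sharing an index with the deepest was chosen after seeing the data.

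Members called for HSC against Ventral, 10 in all, became 2 with equal weighting, 3 without the deepest Ventral cell, 2 without the deepest 5% of cells, 6 with Dock10 and Cep97 out of totals, 2 with size factors, 5 without the index-sharing cells and 25 at 1.5-fold. For Ventral against Mesenchymal, 9 became 1, 2, 1, 5, 1, 2 and 17 in that order, and 3 with a pseudocount of 5 CPM. Without cells carrying macrophage markers the numbers rose to 14 for HSC against Ventral and 11 for Ventral against Mesenchymal. With mitochondrial genes out of totals HSC against Ventral had 11. For Dorsal against Ventral, 3 became 0 with equal weighting, 1 without the deepest 5%, 0 with size factors, 8 without cells carrying macrophage markers and 23 at 1.5-fold. For HSC against Dorsal 3 became 14 and for Dorsal against Mesenchymal 3 became 7 at 1.5-fold. For HSC against Mesenchymal 1 became 0 with a pseudocount of 5 CPM and 9 at 1.5-fold. By construction a lower threshold can only add calls and a larger pseudocount can only shrink folds. Leaving out cells moved the number of calls in both directions, and the cause of these and the other changes was not tested. The share of all genes called was not set beside these counts, which therefore give no result about the members.

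Nuclear shares of counts in HSC, Dorsal, Ventral and Mesenchymal were 1.68%, 1.66%, 1.71% and 1.51% with equal weighting, 1.70%, 1.64%, 1.76% and 1.56% without the deepest 5%, 1.96%, 1.77%, 2.19% and 1.83% with mitochondrial genes out of totals, 2.18%, 1.83%, 2.18% and 1.95% with Dock10 and Cep97 out, and 1.64%, 1.66%, 1.71% and 1.49% with size factors. Mitochondrially encoded shares were 4.26%, 5.41%, 5.60% and 5.40% with equal weighting, 4.37%, 5.33%, 5.87% and 5.74% without the deepest 5%, 5.52%, 5.86%, 5.61% and 6.12% with Dock10 and Cep97 out, and 4.12%, 5.42%, 5.57% and 5.35% with size factors. Without cells carrying macrophage markers, nuclear and mitochondrially encoded shares were 1.71% and 5.36% in Dorsal and 2.15% and 5.45% in Ventral. In Ventral they were 1.89% and 5.24% without the deepest cell, and 1.90% and 5.09% without the index-sharing cells.

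At 1 count in place of 5, Cox4i2 was in 50% of HSC cells, Cox6b2 in 70.3%, 30.4%, 43.8% and 56.5% of HSC, Dorsal, Ventral and Mesenchymal cells, and Cox7a1 in 13%, 16.2% and 10.1% of the last 3. Without thinning Cox6b2 was in 60% of HSC and 17.2% of Dorsal cells and Cox7a1 in 11.8% of Dorsal cells. With merged exon lengths 6 of the 10 highest members per length remained.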

Other observations

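The ribosomal protein genes of both compartments, whose shares moved with the nuclear OXPHOS share over cells, differed between pools in unlike ways. Of 76 mitochondrial ribosomal protein genes, which serve the translation of the 13 mitochondrially encoded proteins, 2 were called at least 2-fold higher in HSC than in Dorsal and 2 higher in Dorsal, beside 11.3% and 25.3% of all genes, with a median log2 fold of 0.12 that turned to -0.02 with the authors' size factors. For Dorsal against Ventral their median was -0.33, beside -0.32 for the 88 OXPHOS members, and these were -0.22 and -0.16 without the deepest Ventral cell. Of 48 cytosolic ribosomal protein genes, 6 were called higher in HSC than in Dorsal and 0 higher in Dorsal (all genes 11.3% and 25.3%), with a median of 0.75. The same list had a median of 0.80 for HSC against Mesenchymal, where 11 were called higher in HSC and 0 in Mesenchymal (all genes 16.6% and 22.6%), and -0.15 for Dorsal against Ventral. The OXPHOS medians for HSC against Dorsal and against Mesenchymal, 0.16 and 0.10, were nearer to those of the mitochondrial ribosomal genes, 0.12 and 0.02.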
